A study of Mus musculus with 9 samples.

Results

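The 7 genes described here belong to the connexin and purinergic signalling chain of Kölliker's organ, and their RNA was followed in the developing cochlear duct of mice with and without the transcription factor PRDM16. They are the connexin genes Gjb2, Gjb6, Gja1 and Gjc1, the pannexin gene Panx1, the ATP receptor gene P2ry1 and the chloride channel gene Ano1. They were chosen by name from what is known of this chain, with earlier results of these libraries known, and all 7 are among the 54232 genes counted in each library. RNA was sequenced from 9 embryos at embryonic day 14.5 (E14.5), with both cochlear ducts of 1 embryo in each library. The 3 groups, of 3 embryos each, were wild type (WT), Prdm16 cGT heterozygote (Het) and Prdm16 cGT null. The paper mated heterozygotes so that null embryos had Het and WT littermates as controls, and reports 3 littermates per genotype. The cGT allele is a gene trap carried in every cell of the animal on an FVB/NJ background, so no group reports on loss of Prdm16 in the cochlea alone. The ducts were microdissected whole, which means that Kölliker's organ, the prosensory domain, the lateral epithelium and the roof were measured together.

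Kölliker's organ is the transient epithelial ridge on the medial side of the cochlear duct. After birth and before hearing begins, its supporting cells release ATP through connexin hemichannels. The ATP binds the P2RY1 receptor on the same and neighbouring cells, which acts through Gq and phospholipase C to empty the endoplasmic reticulum of calcium. The calcium opens the ANO1 (TMEM16A) chloride channel, and the ion and water flow that follows makes the cells shrink and depolarises the hair cells nearby. The gap junction proteins encoded by Gjb2 and Gjb6 also couple the supporting cells to one another, and mutations in these genes cause inherited deafness. The libraries described here come from a stage well before that activity, when the duct is still being patterned. A lower level in bulk tissue can come from fewer cells of a type or from less RNA per cell, and these cannot be told apart.

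Gjb2 and Gjb6 lie near each other on the minus strand of mouse chromosome 14 (mm10), Gjb2 at chr14:57098600-57104702 and Gjb6 at chr14:57123303-57133611. P2ry1 lies on the plus strand at chr3:61002795-61008982. The other members are Gja1 at chr10:56377330-56402513 on the plus strand, and Gjc1 at chr11:102799579-102819700, Panx1 at chr9:15002128-15045478 and Ano1 at chr7:144588549-144751974 on the minus strand. Promoter windows of 300 bases, from 250 before to 50 after the RefSeq transcript start (GRCm38.p6, the mm10 build), were held for 6 of the 7 genes, all but Gjc1. The windows shown are, those of the most abundant member, of its neighbour and of P2ry1, because the null values of the last pair all lay below the WT values. Each is written 5′ to 3′ on the strand of the gene, with matches to the GC box, GGGCGG on either strand, in capitals.

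Gjb2, chr14:57104653-57104952, minus strand: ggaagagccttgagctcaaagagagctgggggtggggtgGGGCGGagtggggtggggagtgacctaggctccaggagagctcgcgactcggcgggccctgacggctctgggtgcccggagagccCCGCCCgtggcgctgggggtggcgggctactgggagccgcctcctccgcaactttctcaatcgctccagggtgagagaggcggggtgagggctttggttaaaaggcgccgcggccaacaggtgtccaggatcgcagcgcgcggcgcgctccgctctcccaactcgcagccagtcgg
Gjb6, chr14:57133562-57133861, minus strand: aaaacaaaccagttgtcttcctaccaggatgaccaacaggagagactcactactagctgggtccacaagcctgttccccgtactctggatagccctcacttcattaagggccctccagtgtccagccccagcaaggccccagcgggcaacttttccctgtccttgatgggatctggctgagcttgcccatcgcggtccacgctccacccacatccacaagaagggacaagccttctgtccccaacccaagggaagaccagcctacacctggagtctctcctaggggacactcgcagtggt
P2ry1, chr3:61002535-61002834, plus strand: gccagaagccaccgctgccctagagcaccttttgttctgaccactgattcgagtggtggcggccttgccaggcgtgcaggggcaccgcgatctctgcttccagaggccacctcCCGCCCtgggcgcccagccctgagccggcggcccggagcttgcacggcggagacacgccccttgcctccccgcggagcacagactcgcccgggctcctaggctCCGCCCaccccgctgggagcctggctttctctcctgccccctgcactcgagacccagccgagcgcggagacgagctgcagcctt

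The Gjb2 window held 2 GC boxes and the Gjb6 window none, while 35.7% of the 32851 RefSeq promoter windows of this length held at least 1. The P2ry1 window held 2 GC boxes and that of Ano1 held 4. The windows of Gja1 and Panx1 held none. Bases G and C made up 70.0% of the Gjb2 window, 57.3% of the Gjb6 window and 70.7% of the P2ry1 window, against a median of 52.7% over all windows. The ratio of observed to expected CpG pairs was 0.760 for Gjb2 and 0.254 for Gjb6, against a median of 0.384. The TATA box TATAAA, found on either strand in 13.6% of all windows, was in none of the 6. The E box CANNTG, present in 72.3% of all windows, was found once in the window of Gjb2, 2 times in that of Gjb6 and not in that of P2ry1. The AP-1 motif TGANTCA, present in 7.81% of all windows, was found once for Gja1, and the CCAAT motif, present in 37.4%, once for Panx1. These are matches of letters and were not tested as binding sites.

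Total counts ran from 24095322 to 30819118 per library, with group medians of 26800802 in WT, 27268483 in Het and 24691821 in null. Levels are given as CPM, the share of a gene in the library total after TMM scaling. The targeted gene Prdm16 was at 184 to 225 CPM in WT, 123 to 151 CPM in Het and 19.1 to 27.4 CPM in null libraries, in the order of the labels. Markers of otic epithelium were present throughout, at a summed 1920 to 2687 CPM for 6 genes. A set of 3 libraries stood apart in markers of surrounding tissue. The summed level of 10 mesenchyme markers was 615 CPM in WT embryo 1, 1111 CPM in WT embryo 2 and 1506 CPM in null embryo 3, against 37.8 to 116 CPM in the other 6 libraries. The same libraries held 48.1 to 82.9 CPM of 6 endothelial markers, against 2.10 to 5.96 CPM in the others. No marker of either list was at 0 in all libraries. Null embryo 3 also held 13770 CPM of 5 cartilage markers, against 6484 to 7540 CPM in the others. The 5 melanocyte markers summed to 57.9 to 134 CPM in WT, 26.8 to 45.8 CPM in Het and 18.2 to 48.2 CPM in null libraries, so all WT libraries lay above the rest. Some results below are therefore also given without these 3 libraries. That fit leaves 1 WT embryo (embryo 3), 3 Het and 2 null embryos, the lone WT embryo is assumed to vary like the others, and its differences from WT are given as values without a test. The part of this tissue in the results was not tested. By Y-linked reads, 1 WT, 1 Het and 2 null embryos were male.

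The 10 markers of Kölliker's organ summed to 3863 to 4724 CPM in WT, 3650 to 4594 CPM in Het and 2069 to 2384 CPM in null libraries. Of these 10 genes, 8 were lower in null than in WT with an edgeR adjusted p under 0.05 and a log2 fold change past 0.5 in size, and none higher, where 0.786% and 0.92% of all genes tested were. The list includes genes that the study picked out in these same libraries, so it is not independent evidence of its direction. The signalling genes below are thus read in tissue where the summed RNA of Kölliker's organ markers was lower in null embryos. The 8 prosensory markers summed to 918 to 1007 CPM in WT, 1146 to 1152 CPM in Het and 1104 to 1399 CPM in null libraries. The 8 roof markers summed to 8112 to 9514 CPM in WT, 9708 to 10245 CPM in Het and 10939 to 14320 CPM in null libraries, and the 6 outer sulcus markers to 1294 to 1472, 1368 to 1640 and 1527 to 2154 CPM.

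**Figure D1:**
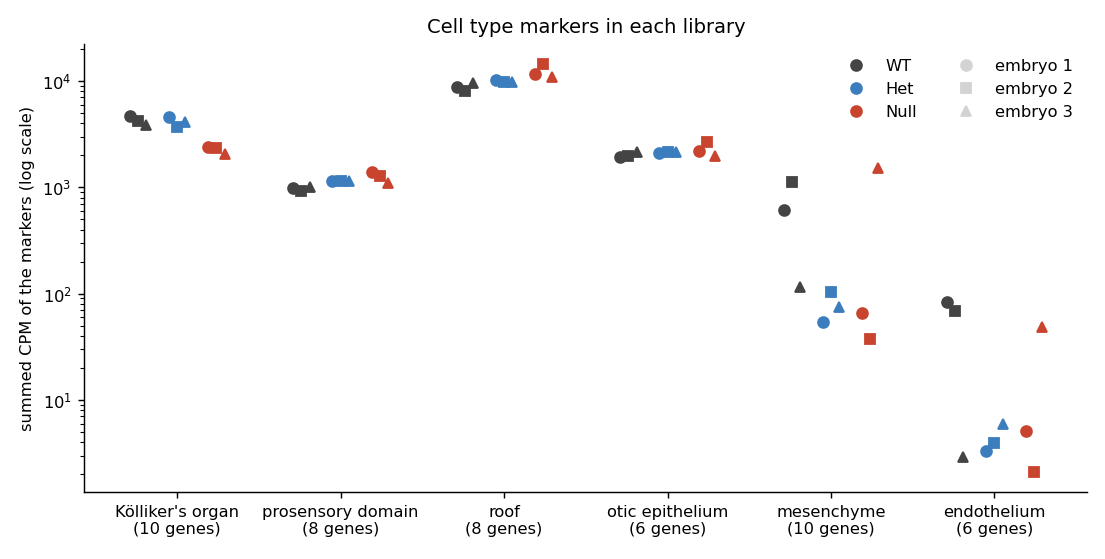
Summed CPM of 6 lists of cell type markers on a log scale, with genotype as color and embryo number as symbol. The Kölliker's organ sum was 2069 to 2384 CPM in null against 3650 to 4724 CPM in the other libraries, and WT embryos 1 and 2 and null embryo 3 stand above the rest in mesenchyme and endothelium.

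To compare the genes with each other, CPM was divided by the length of each gene's annotated exons in kilobases (kb). On this scale Gjb2 stood far above the rest, at 188 ± 16.4 CPM per kb in WT (SD, n = 3). Gjc1 followed at 13.4 ± 0.267 and Ano1 at 9.29 ± 1.74 CPM per kb. Panx1 was at 7.10 ± 0.956, Gja1 at 5.66 ± 0.594 and Gjb6 at 4.82 ± 0.0806 CPM per kb. P2ry1 was the lowest at 0.764 ± 0.155 CPM per kb. Among these 7 genes, the receptor was thus the least abundant transcript per kb and a connexin the most abundant.

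The order of the means per kb was the same in all 3 genotypes. In each genotype, every library's value of Gjb2 lay above every value of Gjc1, and every value of Gjb6 above every value of P2ry1. The gap between Gjb2 and Gjc1 was 14.03-fold in WT, 13.3-fold in Het and 12.6-fold in null. The neighbours between these ends were less distinct. Ano1 and Panx1 overlapped in WT and Het, Gjc1 and Ano1 overlapped in Het and null, Panx1 and Gja1 in Het and null, and Gja1 and Gjb6 in Het. The middle of the order also depended on the gene model. Per length of the longest transcript in place of all exons, Gja1 moved from the fifth place to the third in WT and Het and to the fourth in null.

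**Figure D2:**
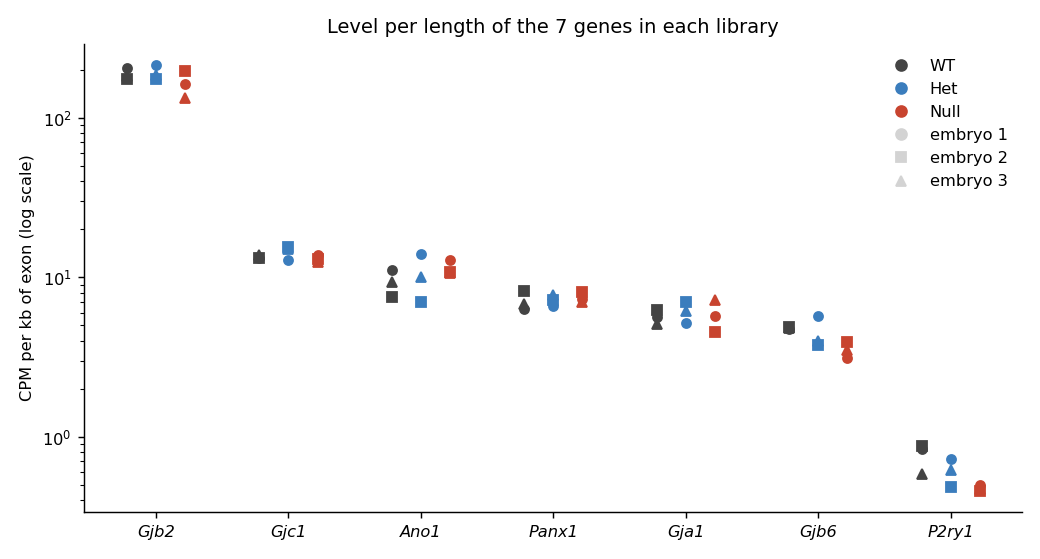
CPM per kb of annotated exon of the 7 genes in each library, on a log scale, ordered by the WT mean, with genotype as color and embryo number as symbol. Gjb2 lies above every other gene in every library, and P2ry1 is the lowest in every library.

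Of the 20 connexin genes counted, Gjb2 made up 88.1 ± 0.919% of the summed level per kb in WT, 87.9 ± 1.50% in Het and 87.2 ± 2.53% in null (SD, n = 3). Gjc1 came next with 6.31 ± 0.526% in WT, then Gja1 with 2.67 ± 0.389% and Gjb6 with 2.27 ± 0.203%. Each of the other 16 connexin genes averaged at most 0.180% in any genotype. Of these, Gja6 and Gjb1 were the ones to pass the filter on low counts in the comparisons, with all libraries under 1 CPM. The summed connexin level was 213 ± 16.4 CPM per kb in WT, 218 ± 18.5 in Het and 188 ± 30.3 in null, and the values of the 3 genotypes overlapped.

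The comparisons between genotypes asked whether Prdm16 loss moved these genes. A gene was called where edgeR's quasi-likelihood test gave an adjusted p under 0.05 over all genes tested and the log2 fold change passed 0.5 in size. None of the 7 genes was called in null against WT, where 1.71% of 17168 genes tested were. None was called in Het against WT, where 0.151% of 17269 were, or in null against Het, where 0.615% of 17067 were. DESeq2 called none of the 7 either, against 3.55%, 1.72% and 2.12% of all genes in the 3 comparisons. With edgeR's unadjusted p under 0.05, 2 of the 7 passed in null against WT, where 12.2% of all genes did, and 0 in each of the other comparisons, where 13.1% and 11.4% of all genes did. The 3 comparisons share libraries. Each p-value weighs a difference between genotypes against the spread between these embryos, an estimate that draws on all genes tested.

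**Figure D3:**
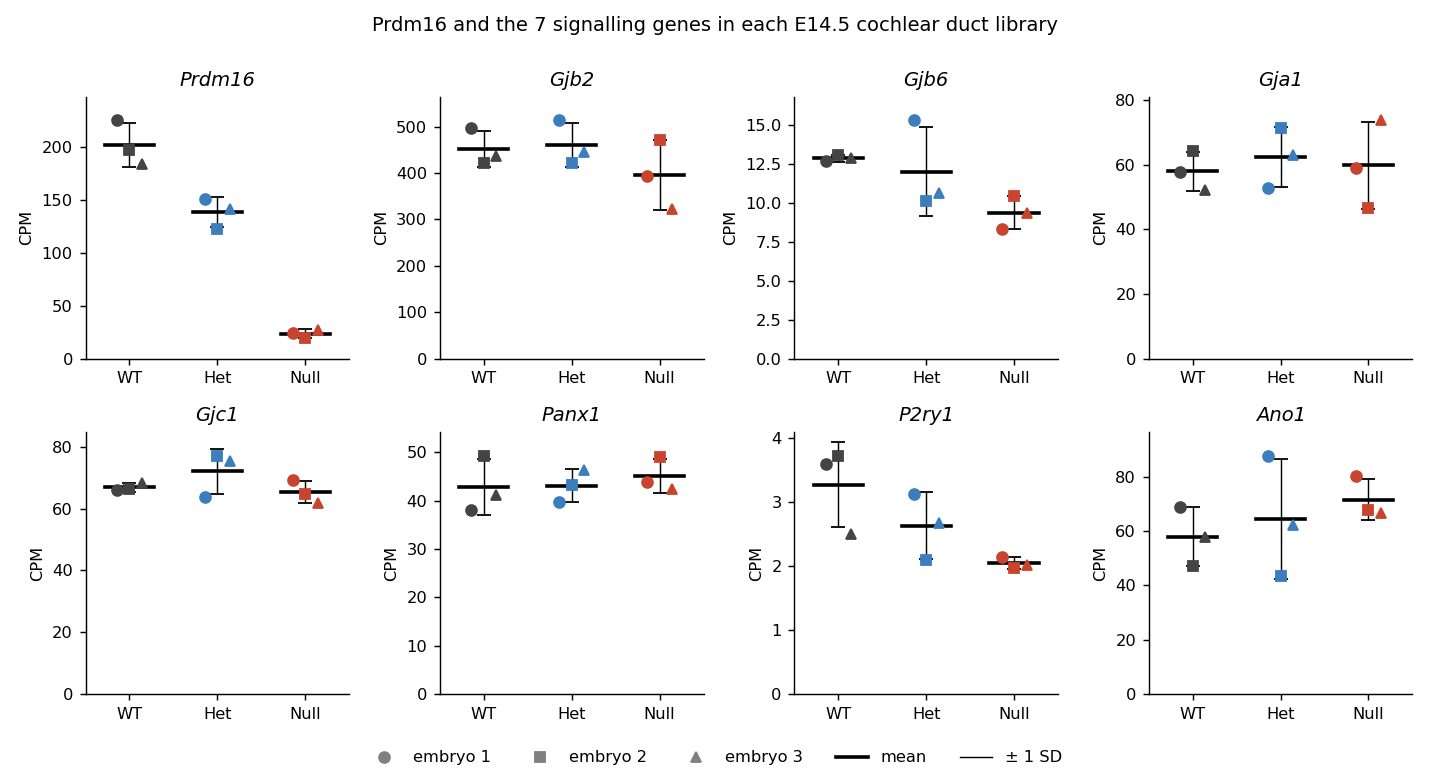
CPM of Prdm16 and the 7 genes in each library, with bars for the mean and ± 1 SD of 3 embryos. Null values lie below all WT values for Gjb6 (8.34 to 10.5 against 12.7 to 13.1 CPM) and P2ry1 (1.97 to 2.15 against 2.51 to 3.73 CPM) and overlap with WT for the other 5.

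Gjb2, the main connexin of the cochlear epithelium, was at 496, 422 and 436 CPM in WT embryos 1 to 3. It was at 513, 422 and 446 CPM in Het and at 394, 472 and 322 CPM in null embryos 1 to 3. Null embryos 1 and 3 lay below every WT embryo and null embryo 2 lay among them. The log2 fold change of null against WT was -0.19 (SE 0.141, 95% interval -0.52 to 0.13), with an edgeR adjusted p of 0.648. With each embryo left out in turn it ranged from -0.33, without null embryo 2, to -0.06, without null embryo 3. It was -0.31 with a covariate for mesenchyme markers, -0.31 with one for sex, and -0.00 without the 3 libraries with most mesenchyme RNA, where WT is a single embryo. Het and WT embryos differed by 0.03 (interval -0.15 to 0.21, edgeR adjusted p = 0.925).

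Gjb6, which pairs with Gjb2 in supporting cell gap junctions, was at 12.7, 13.1 and 12.9 CPM in WT embryos 1 to 3. It was at 15.3, 10.1 and 10.6 CPM in Het and at 8.34, 10.5 and 9.35 CPM in null embryos 1 to 3. All 3 null embryos lay below all 3 WT embryos, while the Het embryos spread across both. Null embryos held 72.9% of the WT mean. This is a log2 fold change of -0.46 (SE 0.138, interval -0.78 to -0.14), and the unadjusted p of 0.0107 became 0.207 after edgeR's adjustment. DESeq2 gave an adjusted p of 0.0903. Over all genes tested, 8.95% had null values below all WT values, and 5.16% had a smaller unadjusted p than Gjb6. Melanocyte markers were likewise lower in all null than in all WT embryos, and their part in the values of Gjb6 and P2ry1 was not tested. The difference ran from -0.38 to -0.54 when any 1 embryo was left out. It was -0.44 without the 3 libraries rich in mesenchyme markers, a value that rests on 1 WT embryo.

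The ratio of Gjb2 to Gjb6 counts within a library does not depend on how libraries are scaled. It was 39.2, 32.2 and 33.9 in WT, 33.5, 41.8 and 41.9 in Het and 47.3, 45.1 and 34.5 in null embryos 1 to 3. The 3 genotypes overlapped. The mean log2 ratio was 0.26 higher in null than in WT (two-sided exact permutation test, p = 0.2), 0.15 higher in Het than in WT (exact p = 0.3) and 0.11 higher in null than in Het (exact p = 0.5). With 3 embryos against 3 the smallest possible p is 0.1.

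The genes on either side of the pair were also read. Gja3, which encodes a lens connexin, lies next to Gjb2 at chr14:57034460-57058100 and was at 0.118 to 0.562 CPM, below the filter. Gm4491, a predicted gene between Gjb2 and Gjb6, was at 0.413 to 1.25 CPM. Cryl1, which encodes a dehydrogenase and lies beyond Gjb6, was at 17.8 to 19.7 CPM in WT and 15.7 to 21.0 CPM in null, a log2 difference of -0.00 (edgeR adjusted p = 0.997). The lower null values of Gjb6 were thus not matched by its neighbour Cryl1.

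Gja1 encodes the most widespread gap junction protein of the body, found in mesenchyme and glia as well as epithelium. It was at 57.7, 64.3 and 52.1 CPM in WT, 52.7, 71.3 and 63.1 CPM in Het and 59.0, 46.7 and 73.8 CPM in null embryos 1 to 3. The highest library of all was null embryo 3 and the lowest null embryo 2, and the genotypes overlapped. The log2 fold change was 0.04 in null against WT (interval -0.34 to 0.42, edgeR adjusted p = 0.947), with a range of -0.14 to 0.20 when each embryo was left out in turn. With the mesenchyme covariate it was 0.17 (edgeR adjusted p = 0.592). It was 0.11 in Het against WT (interval -0.14 to 0.35, edgeR adjusted p = 0.739), and 0.39 with the mesenchyme covariate (edgeR adjusted p = 0.534). Every WT embryo held more mesenchyme marker RNA than any Het embryo, so the covariate and genotype cannot be well separated in that comparison.

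Gjc1 is a connexin gene known from vessels, heart and neurons. It was at 66.1, 66.3 and 68.5 CPM in WT, 63.7, 77.2 and 75.6 CPM in Het and 69.2, 64.8 and 62.0 CPM in null embryos 1 to 3. Null and WT embryos overlapped and Het embryo 2 was the highest. The log2 fold change of null against WT was -0.04, with the narrowest interval of the 7 in that comparison, -0.21 to 0.14, that is a null level of 0.862-fold to 1.10-fold of WT (edgeR adjusted p = 0.875).

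Panx1 encodes a membrane channel that can release ATP. It was at 38.1, 49.3 and 41.1 CPM in WT, 39.6, 43.3 and 46.4 CPM in Het and 43.8, 49.0 and 42.5 CPM in null embryos 1 to 3, with overlap between all genotypes. Its log2 fold change was 0.07 in null against WT (interval -0.21 to 0.35, edgeR adjusted p = 0.857) and 0.01 in Het against WT (interval -0.22 to 0.23, edgeR adjusted p = 0.982).

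P2ry1, the Gq-coupled ATP and ADP receptor gene of the chain, was at 3.59, 3.73 and 2.51 CPM in WT embryos 1 to 3. It was at 3.13, 2.09 and 2.67 CPM in Het and at 2.15, 1.97 and 2.01 CPM in null embryos 1 to 3. These levels rest on 48 to 97 counts per library. All null embryos lay below all WT embryos and, among themselves, within a narrow band, while the Het embryos spread from the null to the WT values. Null embryos held 62.3% of the WT mean. The log2 fold change was -0.68 (SE 0.234, interval -1.23 to -0.14), larger in size than that of any other member, and the unadjusted p of 0.0196 became 0.273 after edgeR's adjustment. DESeq2 gave an adjusted p of 0.284. Among all genes tested, 7.16% had a smaller unadjusted p.

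The P2ry1 difference of null against WT was -0.60 with the mesenchyme covariate (edgeR adjusted p = 0.403) and ranged from -0.57 to -0.84 with each embryo left out in turn. WT embryos 1 and 2, the highest, are the WT libraries with high mesenchyme and endothelial markers, and WT embryo 3, at 2.51 CPM, lay within the range of the Het embryos. Without WT embryos 1 and 2 and null embryo 3, the log2 fold change of null against WT was -0.28 and that of Het against WT turned from -0.32 to 0.07. Both values set the other embryos against WT embryo 3 alone, with 74 P2ry1 counts. Exons of P2ry1 share 992 bases with an antisense gene, Gm37035, which held at most 0.0838 CPM. Whether counting used the strand is not given in the sources used here.

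Ano1, the calcium-gated chloride channel gene at the end of the chain, was at 68.9, 47.2 and 57.9 CPM in WT, 87.8, 43.6 and 62.3 CPM in Het and 80.3, 67.7 and 66.7 CPM in null embryos 1 to 3. Het embryos held both the highest and the lowest value, and null embryos 2 and 3 lay below WT embryo 1. Null and WT embryos differed by a log2 fold change of 0.30 (SE 0.142, interval -0.03 to 0.63, edgeR adjusted p = 0.455), which ranged from 0.18 without WT embryo 2 to 0.44 without WT embryo 1. In Het against WT it was 0.15 with a wide interval, -0.33 to 0.63 (edgeR adjusted p = 0.823).

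**Figure D4:**
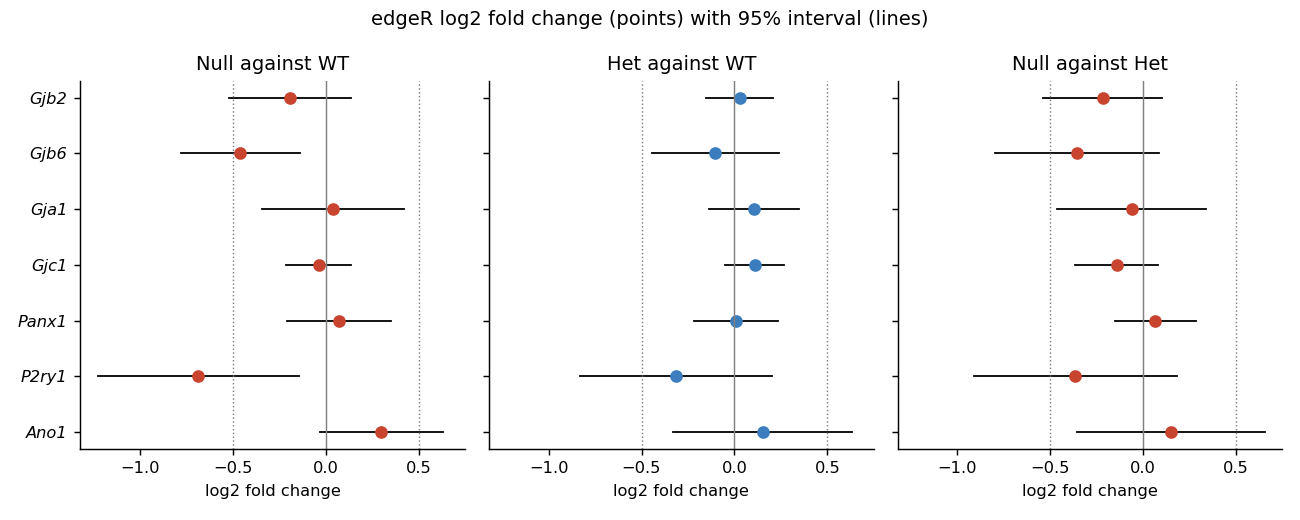
Log2 fold change of the 7 genes from edgeR (points) with 95% intervals (lines) in the 3 comparisons, which share libraries, and dotted lines mark ± 0.5, the size a call needs. In null against WT the intervals of Gjb6 (-0.78 to -0.14) and P2ry1 (-1.23 to -0.14) lie below 0, and all others in the 3 panels reach across it.

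Null against Het gave log2 fold changes between -0.36 for P2ry1 and Gjb6 and 0.15 for Ano1, with edgeR adjusted p-values from 0.512 for Gjb6 to 0.909 for Gja1. In a fit of all 9 libraries against the number of WT alleles, 2.98% of 17797 genes passed an adjusted p of 0.05 and none of the 7 did. The slope per WT allele was 0.34 for P2ry1 (SE 0.110, edgeR unadjusted p = 0.0105, adjusted p = 0.157) and 0.23 for Gjb6 (SE 0.0843, unadjusted p = 0.0207, adjusted p = 0.218), where 15.3% of all genes had an unadjusted p under 0.05. The other slopes lay between -0.15 for Ano1 and 0.09 for Gjb2. This fit uses the same libraries and is not separate evidence. Over the 7 genes, the median log2 fold change of null against WT was -0.04, against 0.01 over all genes tested. In Het against WT it was 0.03 against 0.00.

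The other genes of the chain were read from 8 lists, 86 genes in all, of which 56 were tested in null against WT. Of these, 3 were called higher in null embryos and 0 lower, where 0.92% of all genes tested were called higher and 0.786% lower. DESeq2 called 5, against 3.55% of all genes. The 2 more were Enpp2 (log2 fold change 0.90, DESeq2 adjusted p = 0.0036) and Atp2b4 (0.57, DESeq2 adjusted p = 0.048), named here after their values were seen. In null embryos 1 to 3 Enpp2 was at 29.1, 28.0 and 51.8 CPM and Atp2b4 at 64.6, 49.4 and 87.7 CPM, highest for both in null embryo 3, the library rich in mesenchyme and cartilage markers, whose part in these values was not tested. The lists were written with earlier results of these libraries known, and the 3 genes called are among those the study itself lists as changed in them, so the counts are not independent evidence. The 3 genes that edgeR called act at different steps, P2rx2 as an ATP-gated ion channel, Gna14 as a Gq family subunit that activates phospholipase C, and Enpp1 as a cell surface enzyme that hydrolyses ATP to pyrophosphate. The null libraries in which they were higher also held more roof marker RNA than any other library, and the part of this in their level was not tested.

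P2rx2 was at 12.1, 9.34 and 14.4 CPM in WT, 19.6, 17.7 and 14.7 CPM in Het and 30.8, 42.6 and 30.5 CPM in null embryos 1 to 3. Neither the Het nor the null embryos overlapped with WT, and the null embryos lay above all others. Over all genes tested, 10.1% had null values above all WT values, 8.97% had Het values above all WT values and 9.06% had null values above all Het values. The P2rx2 log2 fold change in null against WT was 1.53 (SE 0.198, edgeR adjusted p = 0.0102) and in null against Het 1.00 (SE 0.165, edgeR adjusted p = 0.0459). The null against Het call was lost with the sex covariate (0.91, edgeR adjusted p = 0.0569) and library totals alone (0.98, 0.0522). It was also lost with a mean count of at least 100 (0.99, 0.0536) and the replicate block (0.99, 0.0728). It held with DESeq2, RLE scaling, no filter, all 9 libraries in one fit and the mesenchyme covariate. In Het against WT the P2rx2 log2 fold change was 0.54, with an edgeR adjusted p of 0.179 and a DESeq2 adjusted p of 0.0284. It was 0.13 with the mesenchyme covariate (edgeR adjusted p = 0.918) and 0.27 against WT embryo 3 alone, without the 3 libraries rich in mesenchyme markers. These values are not separate checks. Mesenchyme markers summed to 116 to 1111 CPM in WT and 54.4 to 104 CPM in Het, with WT embryo 3 nearest to Het. The covariate and genotype therefore cannot be well separated there. The call in null against WT was lost without WT embryo 1 (edgeR adjusted p = 0.0742) and without WT embryo 2 (edgeR adjusted p = 0.0583), at log2 fold changes of 1.55 and 1.39. Against WT embryo 3 alone, without those 3 libraries, the null value was 1.36.

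Gna14 was at 14.1, 11.6 and 13.3 CPM in WT, 15.7, 16.6 and 18.5 CPM in Het and 37.2, 43.8 and 29.9 CPM in null embryos 1 to 3. The 3 genotypes did not overlap. Its log2 fold change was 1.50 in null against WT (SE 0.160, edgeR adjusted p = 0.00529) and 1.12 in null against Het (SE 0.149, edgeR adjusted p = 0.0220). In Het against WT it was 0.38 and was not called (edgeR adjusted p = 0.156). The null against WT call held with each embryo left out in turn, with log2 fold changes of 1.37 to 1.64.

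Enpp1 was at 102, 78.5 and 97.8 CPM in WT, 149, 92.9 and 121 CPM in Het and 256, 235 and 201 CPM in null embryos 1 to 3. The null embryos lay above all others, and Het embryo 2 lay among the WT embryos. Its log2 fold change was 1.31 in null against WT (SE 0.126, edgeR adjusted p = 0.00343) and the call held with each embryo left out in turn. In Het against WT it was 0.38 and was not called (edgeR adjusted p = 0.316). There the edgeR adjusted p ran from 8.56e-08 with no filter on low counts to 0.962 with the mesenchyme covariate, at log2 fold changes of 0.38 and 0.083. In null against Het the log2 fold change was 0.93 with an edgeR adjusted p of 0.0614. The alternatives fell on both sides of the threshold, with adjusted p-values of 0.0257 with all 9 libraries in one fit, 0.0401 with the sex covariate and 3.15e-06 with DESeq2, against 0.0668 with library totals alone and 0.0836 to 0.321 in 5 of the 6 fits that left out an embryo. Of the 54 genes of the lists tested in Het against WT, edgeR called 0. An unadjusted p under 0.05 was reached by 7 of the 54, against 13.1% of all genes, and DESeq2 called 1, P2rx2, against 1.72% of all genes. Of the 53 tested in null against Het, edgeR called 2, Gna14 and P2rx2, both higher, as were 0.293% of all genes tested. Both calls were lost in most fits that left out an embryo. Over all those fits the log2 fold change was 0.82 to 1.09 for P2rx2 and 0.99 to 1.26 for Gna14.

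**Figure D5:**
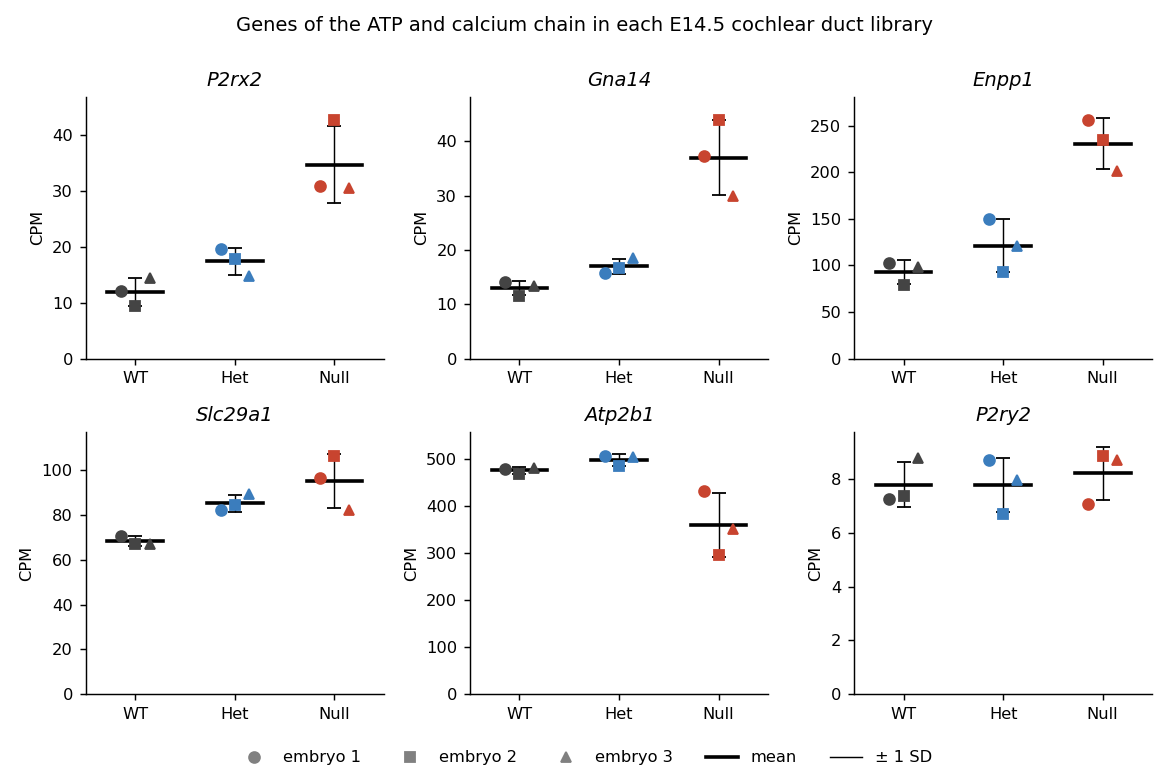
CPM in each library of 6 genes of the ATP and calcium lists, with bars for the mean and ± 1 SD of 3 embryos. The null embryos lie above all others for P2rx2 (30.5 to 42.6 CPM), Gna14 (29.9 to 43.8 CPM) and Enpp1 (201 to 256 CPM), which were called in null against WT. Slc29a1, Atp2b1 and P2ry2 were not called.

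Among the other P2Y receptors, P2ry2, a Gq-coupled receptor for ATP and UTP, was at 6.71 to 8.88 CPM, and null and WT embryos differed by 0.07 on the log2 scale (edgeR adjusted p = 0.897). P2ry14 and P2ry6, which respond to UDP-sugars and UDP, stayed under 1 CPM. Of 5 P2X genes tested in null against WT, P2rx2 was called. P2rx4 was at 8.29 to 14.3 CPM with a log2 fold change of 0.20 and P2rx3, known from sensory neurons, at 1.77 to 3.12 CPM with -0.10, and neither was called (edgeR adjusted p = 0.707 and 0.908). The 3 adenosine receptor genes tested gave 0 calls. Adora1 was at 1.48 to 2.16 CPM in WT and 2.39 to 3.94 CPM in null, a log2 fold change of 0.81 (edgeR unadjusted p = 0.0219, adjusted p = 0.288), and it shares 1162 exon bases with Mybph, a protein-coding gene on the opposite strand. Adora2b was at 0.371 to 0.475 CPM in WT and 0.619, 0.775 and 1.80 CPM in null embryos 1 to 3, the highest being the library rich in mesenchyme and cartilage markers, a log2 difference of 1.34 (edgeR unadjusted p = 0.0241, adjusted p = 0.299). Adora2a did not exceed 1.02 CPM in any library, and its log2 fold change of -0.34 had an edgeR adjusted p of 0.901.

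Of the 12 ectonucleotidase and adenosine genes tested in null against WT, Enpp1 was called. Slc29a1, which encodes an equilibrative nucleoside transporter, was at 67.0 to 70.8 CPM in WT, 82.1 to 89.5 CPM in Het and 82.4 to 107 CPM in null. Neither the Het nor the null embryos overlapped with WT. Its log2 fold change was 0.32 in Het against WT (edgeR adjusted p = 0.0466), under the size that a call needs, and 0.47 in null against WT (edgeR adjusted p = 0.0725). It shares 275 exon bases with an antisense gene, Gm17080. Entpd3, an enzyme that removes phosphates from ATP and ADP, was at 81.7 to 112 CPM a log2 difference of 0.06 between null and WT embryos (edgeR adjusted p = 0.895).

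Of the 20 genes tested between Gq and the calcium stores in null against WT, Gna14 was called. Atp2b1, a calcium pump of the plasma membrane, was at 467 to 480 CPM in WT, 484 to 506 CPM in Het and 432, 296 and 350 CPM in null embryos 1 to 3. The null embryos lay below all others. Its log2 fold change was -0.41 in null against WT (SE 0.132, edgeR unadjusted p = 0.0152, adjusted p = 0.243) and it was not called. Atp2a2, the calcium pump of the endoplasmic reticulum, was at 346 to 423 CPM and differed by 0.11 on the log2 scale (edgeR adjusted p = 0.714). Plcb3, a phospholipase C, was at 131 to 138 CPM in WT and 120 to 128 CPM in null, a log2 difference of -0.12 (edgeR adjusted p = 0.524).

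The remaining channel genes gave 0 calls in all 3 comparisons. Of the ATP release genes, Lrrc8a, a subunit of volume-regulated anion channels, was at 16.3 to 24.7 CPM, with null embryos 0.23 higher on the log2 scale (edgeR adjusted p = 0.589), and it shares 2853 exon bases with Gm28035 on the same strand, so its reads may be split. Panx2 was at 12.8 to 15.3 CPM (log2 fold change -0.07, edgeR adjusted p = 0.857). Calhm2 was at 0.840 to 1.80 CPM (log2 fold change -0.31, edgeR adjusted p = 0.776). Among the other anoctamins, Ano6, a calcium-dependent lipid scramblase, was at 87.2 to 117 CPM, Ano8 at 62.1 to 82.9 CPM and Ano10 at 46.7 to 62.0 CPM. Their log2 fold changes in null against WT were -0.02, -0.06 and 0.16, with edgeR adjusted p-values of 0.953, 0.880 and 0.494. Ano3, named after its values were seen, was at 5.26 to 5.89 CPM in WT, 4.33 to 6.29 CPM in Het and 1.23 to 3.72 CPM in null, with all null embryos below all WT embryos. Its log2 fold change was -1.07 (interval -1.93 to -0.21) and it was not called (edgeR unadjusted p = 0.0211, adjusted p = 0.282).

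The genes most like each member across the 9 libraries were found by Pearson's r of log2 CPM over 17797 genes, as a description. For Gjb2 they were Cpsf3 (r = 0.968), Isl2 (0.957) and Gm16133 (0.949). For Gja1 they were Nadk2 (0.964), Mcm4 (0.939) and Ubr7 (0.932), and for Gjc1 Taf6 (0.964), Adamts18 (0.911) and Msh6 (0.907). For Panx1 they were Mrps14 (0.961), Rab5if (0.942) and Tmprss9 (0.932), for P2ry1 Ccdc82 (0.962), Ctso (0.920) and Th (0.920), and for Ano1 Pcdhga7 (0.912), Gm47962 (0.908) and Atp1b2 (0.906). For Gjb6 they were Gm13529 (0.966), Gm43127 (0.955) and Gm40614 (0.947), which all lay under 1 CPM on average. So did Gm16133, Tmprss9, Th and Gm47962 among the partners of other members. The 9 libraries share genotypes and dissection. Few of these partners stayed among the closest 3 by other measures, 6 of 21 by rank correlation and 2 of 21 after the genotype means were removed. Among the members themselves, the highest r was 0.77, between Gjb6 and P2ry1, and the lowest -0.69, between Gjb2 and Gja1.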

How the data were processed

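RNA sequencing was done on cochlear ducts from 9 embryos (E14.5), 1 library each, grouped here by the labelled genotype. The authors made TruSeq mRNA libraries, read them as single ends on a HiSeq instrument and mapped the reads to mm10 using STAR, with Cufflinks as source of annotation and DESeq2 as their test. The submitters' processing notes also name cutadapt 1.13 and HTSeq 0.6.1p1. The deposited values are raw counts per Ensembl gene. The strand setting and annotation release are not given in the sources used here, so reads of genes that overlap cannot be assigned with certainty.

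Of the 54232 genes, 54079 had an entry in GENCODE vM21, used for names, positions and exon lengths. Counts were compared with edgeR 4.0.16 in R 4.3.3 (TMM scaling, filterByExpr with a minimum count of 10, quasi-likelihood test, Benjamini-Hochberg adjustment over all genes tested) with the 6 libraries of 2 genotypes in each fit. CPM used the TMM-scaled library sizes. All 7 members passed the filter. The procedure was also run on simulated counts in which 200 genes were changed by known folds, and the outcome is not given here. The Gjb2 to Gjb6 ratio had 0.5 added to both counts. Precision is limited by 3 embryos per genotype and by library totals of 24095322 to 30819118 counts.

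The members and the lists of pathway and marker genes were chosen with earlier results of these data known. The genes named were the 7 members and Prdm16, every listed pathway gene past the threshold in a pairwise comparison, up to 3 further tested genes of each list by mean level, the protein-coding genes next to Gjb2 and Gjb6, and the 3 genes most like each member. Enpp2, Atp2b4 and Ano3 fall outside this rule and were named after their values were seen. The alternatives were DESeq2 1.42.0, RLE scaling or library totals alone, no filter or a stricter filter on low counts, a joint fit of all 9 libraries, a block for the replicate number, covariates for mesenchyme markers and for sex, an adjusted p alone, and leaving out each embryo in turn. Leaving out 3 libraries rich in mesenchyme markers was chosen after seeing the data.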

Additional observations from a re-analysis of the deposited data

How the results depend on the processing

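No alternative led to a call for any of the 7 genes in any comparison or in the fit against WT allele number. P2ry1 had no value with a mean count of at least 100, since it lies below that. For the pathway lists, the 3 calls in null against WT became 5 with DESeq2, which called 3.55% of all genes, and 5 with the mesenchyme covariate. They ranged from 2 (without WT embryo 1 or 2) to 4 when each embryo was left out in turn. The 0 calls in Het against WT became 1 with the adjusted p alone, 1 with DESeq2 (1.72% of all genes) and 5 with no filter on low counts. They ranged from 0 to 4 when each embryo was left out in turn (4 without WT embryo 3). The 2 calls in null against Het became 4 with DESeq2 (2.12% of all genes), 4 with no filter and 4 with the mesenchyme covariate. They became 1 with library totals alone and 1 with a mean count of at least 100, and ranged from 0 to 3 when each embryo was left out. The share of all genes called in the other fits is not given here, so those counts cannot be read on their own. The cause of the moved counts was not tested.

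Whether embryos of one number share a litter is not given in the sources used here. The numbers were not taken to pair the libraries, since same-numbered libraries did not deviate together in every pair (correlations of -0.28 to 0.01 between null and WT, -0.06 to 0.20 between Het and WT and -0.12 to 0.14 between null and Het). With the replicate number as a block, edgeR called 2 pathway genes in null against WT, 0 in Het against WT and 0 in null against Het. P2rx2 in null against WT then had a log2 fold change of 1.53 and an edgeR adjusted p of 0.0648.

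The sign of small differences depended on the fit. In Het against WT the mesenchyme covariate gave -0.015 for Gjb2, 0.027 for P2ry1 and -0.16 for Ano1, and leaving out WT embryos 1 and 2 and null embryo 3 gave 0.066 for P2ry1. Every WT embryo held more mesenchyme marker RNA than any Het embryo, so the covariate and genotype cannot be well separated there. In null against Het the sex covariate gave 0.071 for Gja1. With each embryo left out in turn, null against WT ranged from -0.0032 to 0.19 for Panx1, -0.14 to 0.20 for Gja1 and -0.081 to 0.00050 for Gjc1. Het against WT ranged from -0.068 to 0.12 for Panx1, -0.057 to 0.10 for Gjb2, -0.13 to 0.37 for Ano1, -0.31 to 0.0075 for Gjb6 and -0.0031 to 0.21 for Gja1. Null against Het ranged from -0.24 to 0.092 for Gja1 and -0.067 to 0.43 for Ano1. For a gene as sparse as P2ry1, 48 to 97 counts per library limit the precision.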
